A study of Mus musculus with 32 samples.

Results

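The sites described here are autosomal 1 kb bins in which trimethylation of histone H3 lysine 9 (H3K9me3) was called in male mouse germ cells after birth in both Morc1 genotypes and in no embryonic sample group. A bin counted as called in a peak list when peaks of that list covered at least 50% of it. Members had no call in any of the 4 embryonic lists (het and KO at E13.5 and at E16.5, named by the day of gestation) and a call in all 4 lists from newborns (P0) and from postnatal day 3 (P3). Of 2397450 autosomal bins between the first and the last peak of each chromosome, 21627 (0.902%) met this rule. They formed 15531 runs of adjacent bins. Members were chosen by the peak cover in these 8 lists, so their calls are a description and were not tested. No stage between E16.5 and P0 was sampled, and members were already called at P0. Whether these calls arose before or after birth therefore cannot be told. Of all autosomal bins, 6.66% were called in E13.5 het, 7.59% in E13.5 KO, 12.2% in E16.5 het, 11.2% in E16.5 KO, 12.9% in P0 het, 11.6% in P3 het and 12.7% in P3 KO; in P0 KO, 323988 of the 2397450 bins were called.

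The germ cells came from testes of mice that carried Mvh-Venus in every group, a transgene in which the promoter of the germ cell gene Ddx4 (Mvh) drives a fluorescent protein. Per the labels, each of the 4 stages had Morc1 (+/-) animals (het) and Morc1 (-/-) animals (KO), with 2 H3K9me3 samples per genotype and stage. One peak list represented each of these 8 groups, so there was no replicate error and read depth was unknown. Peaks carry no height or p-value, and no p-value is given. The 8 lists held 50191 to 89020 autosomal peaks, and they hold no expression, so the germ cell label could not be checked against marker genes. Within the 200 bins of the Morc1 gene body, 3 bins were called in P0 het, 3 in P3 het, 0 in P0 KO and 1 in P3 KO, and none was a member.

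H3K9me3 is a mark of heterochromatin. It is laid down by enzymes such as Setdb1 and the Suv39h proteins, is bound by heterochromatin proteins of the HP1 family, and silences transposable elements and many tissue-specific genes. Male germ cells of these stages, called gonocytes or prospermatogonia, rebuild DNA methylation after it was erased in their precursors, and MORC1 is a nuclear ATPase of these cells that is needed for transposon silencing.

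Few starts of protein-coding genes lay in member bins. RefSeq start windows (GRCm38.p6, 250 bases before to 50 after a start) were available for 20085 starts of protein-coding genes on the autosomes, and 64 of these starts (0.319%), from 60 genes, lay in a member bin. The windows of 5 of the 10 genes ranked first by run length (ties by position), picked for their known functions, are shown. The member window with most CpG dinucleotides is shown too. They illustrate the CpG content of these starts, which is compared below with that of other starts. CpG dinucleotides are in capitals. Prom2 was added after its values had been seen.
Cd84, chr1:171839447-171839746, plus strand: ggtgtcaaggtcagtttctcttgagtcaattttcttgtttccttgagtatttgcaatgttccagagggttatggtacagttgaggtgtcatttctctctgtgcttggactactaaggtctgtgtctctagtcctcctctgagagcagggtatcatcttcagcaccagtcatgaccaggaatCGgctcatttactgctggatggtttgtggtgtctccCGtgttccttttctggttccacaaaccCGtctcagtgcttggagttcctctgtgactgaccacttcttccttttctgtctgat
Fcgr1, chr3:96293920-96294219, minus strand: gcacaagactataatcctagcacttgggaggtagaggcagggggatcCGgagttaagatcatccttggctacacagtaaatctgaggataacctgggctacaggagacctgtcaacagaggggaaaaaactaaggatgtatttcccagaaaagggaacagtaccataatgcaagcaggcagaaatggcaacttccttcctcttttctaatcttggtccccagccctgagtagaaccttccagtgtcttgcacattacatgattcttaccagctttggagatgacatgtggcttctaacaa
Ivl, chr3:92573686-92573985, minus strand: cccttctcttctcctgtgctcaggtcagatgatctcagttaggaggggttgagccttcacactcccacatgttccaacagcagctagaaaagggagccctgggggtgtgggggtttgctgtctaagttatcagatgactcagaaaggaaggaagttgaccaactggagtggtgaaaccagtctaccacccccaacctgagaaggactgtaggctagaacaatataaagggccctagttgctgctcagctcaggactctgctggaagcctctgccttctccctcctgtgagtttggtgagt
H2-Ob, chr17:34238655-34238954, plus strand: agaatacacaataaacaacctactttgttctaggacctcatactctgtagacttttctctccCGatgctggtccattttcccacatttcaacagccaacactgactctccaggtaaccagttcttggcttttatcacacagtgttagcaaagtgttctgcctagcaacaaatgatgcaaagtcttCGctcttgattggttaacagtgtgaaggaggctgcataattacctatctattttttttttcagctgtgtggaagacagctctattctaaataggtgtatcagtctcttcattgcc
Cxcr2, chr1:74153744-74154043, plus strand: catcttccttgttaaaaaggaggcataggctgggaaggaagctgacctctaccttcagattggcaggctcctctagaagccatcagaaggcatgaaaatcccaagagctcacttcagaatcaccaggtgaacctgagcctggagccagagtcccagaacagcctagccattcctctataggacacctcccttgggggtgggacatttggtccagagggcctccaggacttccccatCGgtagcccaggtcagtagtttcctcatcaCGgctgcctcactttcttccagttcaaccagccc
Prom2, chr2:127541368-127541667, minus strand: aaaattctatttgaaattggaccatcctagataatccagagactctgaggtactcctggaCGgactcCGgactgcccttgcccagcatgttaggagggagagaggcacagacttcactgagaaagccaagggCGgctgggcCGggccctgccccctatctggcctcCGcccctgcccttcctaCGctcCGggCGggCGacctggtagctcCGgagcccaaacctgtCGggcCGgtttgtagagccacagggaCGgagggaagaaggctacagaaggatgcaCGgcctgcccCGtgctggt

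The start windows in member bins were poor in CpG. The median was 3 CpG per window (quartiles 1.75 and 5, range 0 to 15, n = 64 starts), against 15 in the 18176 windows whose start was called in no list and 14 in all 20085. At most 5 CpG were present in 56 of the 64 member windows (87.5%) and in 31.4% of all windows. Seen from the other side, 56 of 6308 windows with at most 5 CpG had their start in a member bin (0.888%, 95% Wilson interval 0.684 to 1.15%). Of 13777 windows with more CpG, 8 did (0.0581%, 0.0294 to 0.115%). The 2 intervals do not overlap, and the share of the CpG-poor windows was close to the 0.902% of all autosomal bins. These intervals, like all others here, cover counting error only, and the windows of 1 gene are not independent.

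Protein-coding starts with older H3K9me3 were poorer still. The 323 windows with the start in a bin called in all 8 lists had a median of 1 CpG and 37.7% G and C. The 80 windows in bins gained at E16.5 and kept in all later lists had a median of 1 CpG and 38% G and C. Member windows had 49% G and C, and windows called in no list had 57.7%. The word TATAAA, searched on both strands, occurred in 20.3% of member windows, 41.8% of windows called in all 8 lists and 12.7% of all windows. GGGCGG, also searched on both strands, occurred in 18.8%, 3.10% and 47.0% of the same groups. CACGTG, which reads the same on both strands, occurred in 1 of the 64 member windows (1.56%) and in 7.89% of all windows. It was as rare in older groups, with 2 of the 323 windows called in all 8 lists (0.619%) and 0 of the 80 gained at E16.5 and kept. A match says only that these letters are present.

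**Figure D1:**
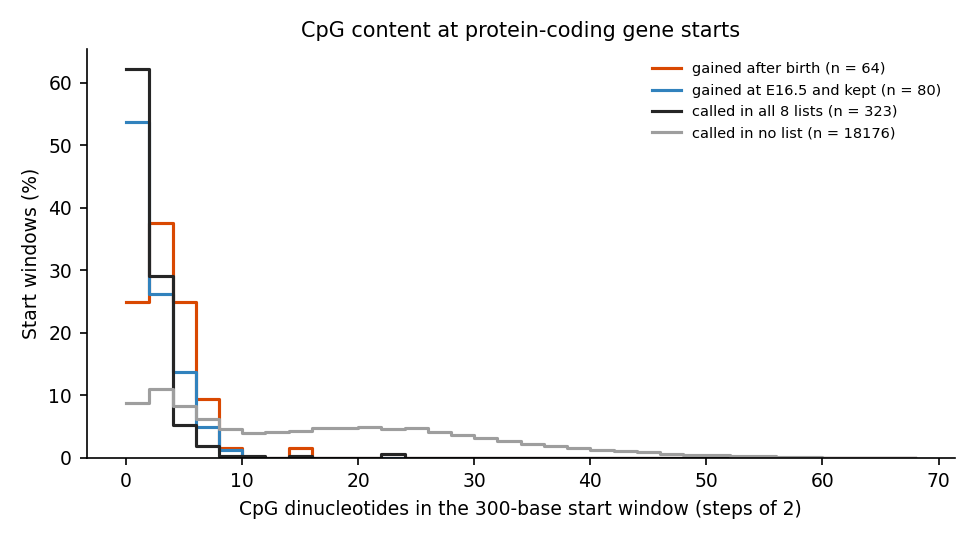
CpG dinucleotides per 300-base start window of protein-coding genes (x axis, steps of 2) against the percent of windows (y axis), one line for each state of the bin that holds the start. The member windows, labelled gained after birth (n = 64, median 3), sit left of those called in no list (n = 18176, median 15). They sit right of those called in all 8 lists (n = 323, median 1).

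Cd84, the gene whose start lay in the longest of these runs, encodes a receptor of the SLAM family on blood cells. Its start lay in a 6 kb run (chr1:171836001-171842000), of which peaks covered 0 bp in each of the 4 embryonic lists, 5766 bp in P0 het, 5940 bp in P0 KO, 6000 bp in P3 het and 6000 bp in P3 KO. The lowest postnatal value was that of P0 het. Fcgr1 encodes the high-affinity Fc receptor for IgG of myeloid cells. Peaks covered 68 bp of its 5 kb run in E16.5 het, 0 bp in the other 3 embryonic lists, 4910 bp in P0 het and 5000 bp in each of P0 KO, P3 het and P3 KO. The Fcgr1 run was flanked by embryonic calls on both sides, while the Cd84 run was flanked on one.

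Ivl encodes involucrin of the epidermal cornified envelope, and its 3 kb run stood free of embryonic peaks. It was covered for 3000 bp in P0 het, P0 KO and P3 het and for 2853 bp in P3 KO. H2-Ob encodes a chain of a non-classical MHC class II molecule. Its run was covered for 85 bp in E16.5 het, 117 bp in E16.5 KO, 0 bp in both E13.5 lists and 3000 bp in each postnatal list. Cxcr2, a chemokine receptor of neutrophils, had a free-standing run of 2 kb, a length it shared with starts of many other genes and led by position only, with 1549 bp in P0 het, 1903 bp in P0 KO and 2000 bp in both P3 lists. The other starts ranked with these lay in 3 kb runs at Mill1, Olfr577, Trim30c, Treh (trehalase) and Atp13a5 (an ATPase of the P5 group). Prom2, with 15 CpG, was the member nearest the threshold among those shown: 582 bp of its bin were covered in P0 het and 389 bp in E16.5 KO. Of the 64 starts, 9 lay in runs of at least 3 kb and 31 in free-standing runs.

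Of 11311 starts of long non-coding RNA genes, 97 (0.858%), from 91 genes, lay in member bins, a share close to the 0.902% of all autosomal bins. Their windows had a median of 3 CpG, as did the 194 lncRNA windows called in all 8 lists, against 4 for all lncRNA windows. At most 5 CpG were present in 88.7% of the member windows and 79.9% of those called in all 8 lists. Unlike at protein-coding starts, windows called in all 8 lists were thus not poorer than member windows. The 105 lncRNA windows gained at E16.5 and kept were poorer, with a median of 2 CpG and at most 5 CpG in 93.3%. Of 7242 lncRNA windows with at most 5 CpG, 86 (1.19%) had their start in a member bin, and of 4069 with more CpG, 11 (0.270%) did.

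Hairpins of 9 microRNA genes, of 919 on the autosomes (0.979%), had their midpoint in a member bin, a share near the 0.902% of all bins. These were Mir6349, Mir7030, Mir7039, Mir710, Mir378d, Mir1843a, Mir433, Mir341 and Mir1188, and their 15 mature sequences had 15 different seeds. The last 3 of these hairpins lay on chromosome 12 in the imprinted Dlk1-Dio3 cluster, whose microRNAs are expressed from the maternal copy. Their mature sequences, from RefSeq on GRCm38.p6, are shown because these 3 hairpins belong to 1 cluster, with the seed (bases 2 to 8) in capitals.
mmu-miR-433-5p: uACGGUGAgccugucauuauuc
mmu-miR-433-3p: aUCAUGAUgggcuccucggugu
mmu-miR-341-5p: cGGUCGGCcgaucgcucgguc
mmu-miR-341-3p: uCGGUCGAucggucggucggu
mmu-miR-1188-5p: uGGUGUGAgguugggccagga
mmu-miR-1188-3p: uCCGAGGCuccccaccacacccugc

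Mir341 and Mir1188 shared 1 run of 4 kb (chr12:109611001-109615000). In the bin that holds both hairpins, peaks covered 0 bp in each embryonic list, 884 bp in P0 het and 1000 bp in P0 KO, P3 het and P3 KO. The bin of Mir433 was a single member next to older marks. It was covered for 168 bp in E13.5 het, 160 bp in E13.5 KO, 246 bp in E16.5 het, 239 bp in E16.5 KO, 528 bp in P0 het and 1000 bp in the other 3 postnatal lists. Of the 58 hairpins between the genes Dlk1 and Dio3, 5 lay in bins called in all 8 lists (Mir127, Mir434, Mir432, Mir3071 and Mir136), 3 in members, 5 in bins with another pattern and 45 in bins called in no list. This region was chosen after the members had been seen.

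Most member bins held no part of an embryonic peak, and postnatal peaks covered most of the average member bin. The rule kept members below the called share in every embryonic list and at or above it in every postnatal list. Low embryonic and high postnatal cover thus follow in part from the choice. Peaks carry no height, so a base pair outside peaks may still carry signal. No base pair of 15680 members (72.5%) lay in a peak of any embryonic list. The mean covered length per member bin was 4.04 bp in E13.5 het, 6.83 bp in E13.5 KO, 59.8 bp in E16.5 het and 48.0 bp in E16.5 KO. It was 893.6 bp in P0 het, 930.8 bp in P0 KO, 927.6 bp in P3 het and 955.7 bp in P3 KO. All 4 postnatal lists covered the whole bin in 8426 members (39.0%). Near the threshold, 1756 members had 400 to 499 bp in the embryonic list that covered most, and 2417 bins failed the rule with 500 to 599 bp there. In the postnatal list that covered least, 3364 members had 500 to 599 bp, and 3848 bins failed with 400 to 499 bp.

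Most runs were short. A single bin made up 11026 of the 15531 runs (71.0%), and 1115 runs (7.18%) were at least 3 kb long. The longest was 8 kb. Runs of bins gained at E16.5 and kept reached 3 kb in 13.8% of cases and 13 kb at most, and runs called in all 8 lists in 37.7% of cases and 49 kb at most. The share of long member runs depended on the settings: it was 19.9% with the longest 50191 peaks of each list and 3.99% with 500 bp bins.

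More runs touched an embryonic call than stood free of embryonic peaks, and the balance depended on the settings. A flanking bin was called in at least 1 embryonic list for 8016 runs (51.6%, 95% Wilson interval 50.8 to 52.4%). Of these, 7380 were flanked on one side and 636 filled a gap between embryonic calls. A further 1072 runs (6.90%) touched no embryonic call, but a postnatal peak over them reached an embryonic peak. The remaining 6443 runs (41.5%, 40.7 to 42.3%) were free-standing, meaning that no postnatal peak over them overlapped a peak of any embryonic list. When any embryonic base pair disqualified a bin, the share of flanked runs was 33.7%. With the longest 50191 peaks of each list it was 69.1%. Of the 27880 runs gained at E16.5 and kept, 17552 (63.0%, 62.4 to 63.5%) had a flanking bin called at E13.5.

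The peaks over the 2 kinds of run differed in length, in part by the definition, since a peak that reaches an embryonic peak makes a run not free-standing. The longest peak over each run was taken. Over free-standing runs its median was 1556 bp in P0 het, 1856 bp in P0 KO, 1861 bp in P3 het and 2336 bp in P3 KO. Over runs that touched an embryonic call it was 4172, 4540, 4505 and 4918 bp in the same order. In each pair of lists at one stage the KO median was the longer, and in each genotype the P3 median was the longer. Over all autosomal peaks the P3 medians (2556 bp in het, 2575 bp in KO) were also longer than those at P0. At P0, however, the median over all peaks was shorter in KO (2346 bp) than in het (2482 bp). For runs that filled a gap, the P3 het median (8732 bp) was below that of P0 het (8909 bp). Around free-standing runs, whose definition keeps embryonic peaks away, embryonic calls were rare: 3 kb before the centre, 1.26% of runs were called in E16.5 het and 0.435% in E13.5 het. Beside runs that touched an embryonic call on one side, 44.3% were called in E16.5 het and 24.5% in E13.5 het 3 kb from the centre on that side.

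**Figure D2:**
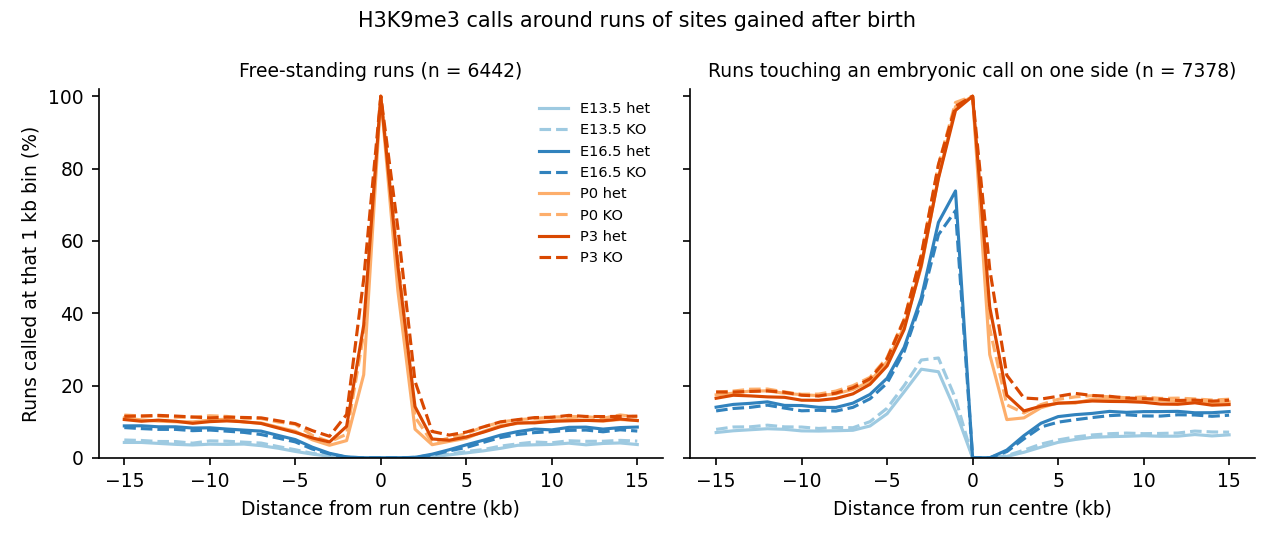
Percent of runs called (y axis) at each 1 kb bin up to 15 kb from the run centre (x axis), one line per list, het solid and KO dashed. Left, free-standing runs; right, runs touching an embryonic call on one side, turned so that this side is on the left. By the rule the embryonic lines are at 0 and the postnatal lines at 100% at the centre. To the left in the right panel E16.5 lines lie above E13.5 lines (44.3% and 24.5% in het at 3 kb).

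Membership became rarer with distance from embryonic calls. Of 172383 bins directly beside an embryonic call and not called in any embryonic list, 8479 (4.92%) were members. At a distance of 2 bins the share was 1.49%, at 3 to 5 bins 0.842%, at 6 to 10 bins 0.746%, at 11 to 50 bins 0.557% and at 51 bins or more 0.305%. Bins directly beside an embryonic call held 39.2% of the members and 8.38% of all bins without embryonic calls.

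The new share of the postnatal territory was largest in small runs. Of the 194226 bins called in all 4 lists of P0 and P3, 11.1% were members, that is, had no embryonic call. When these bins were joined into runs, the share was 31.9% in the 17363 runs of 1 bin, 20.5% in runs of 2 kb, 10.1% in runs of 3 to 5 kb and 5.66% in runs of 6 to 10 kb. In runs of 11 to 20 kb it was 2.36%, and in the 270 runs of 21 kb or more it was 0.628%. No run over 10 kb was made up of members alone, and 16 of 6702 runs of 6 to 10 kb were.

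**Figure D3:**
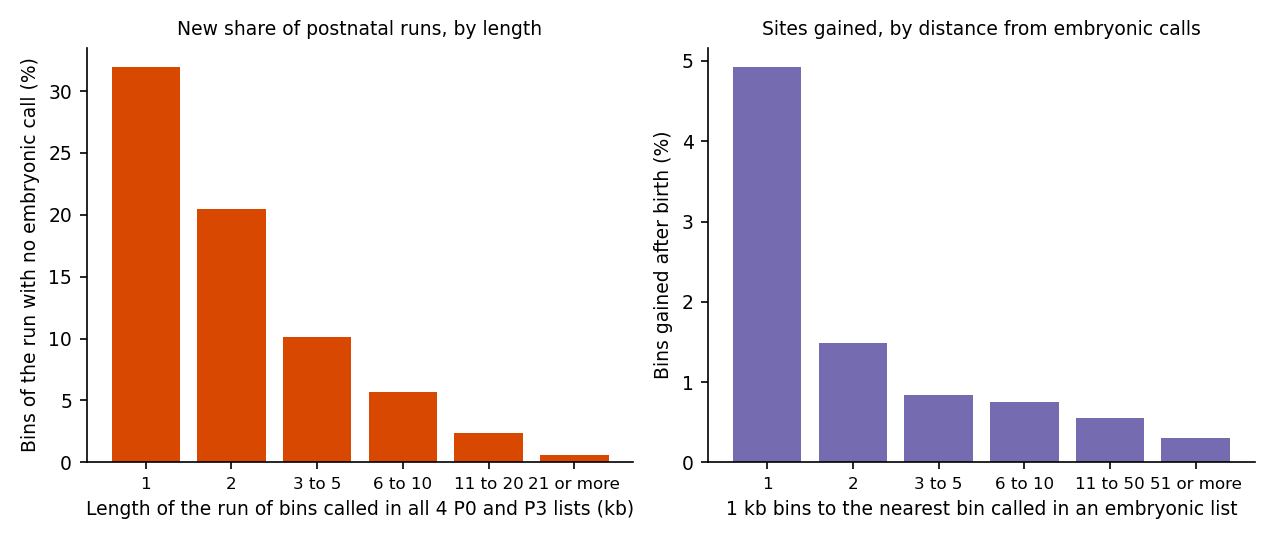
Left, percent of bins without an embryonic call (y axis) in runs of bins called in all 4 P0 and P3 lists, by run length in kb (x axis); it goes from 31.9% in runs of 1 kb to 0.628% in runs of 21 kb or more. Right, percent of bins without an embryonic call that were members (y axis), by distance in 1 kb bins to the nearest embryonic call (x axis), from 4.92% to 0.305%.

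The longest run, of 8 kb, lay on chromosome 6 (chr6:47989001-47997000) between Zfp956 and Zfp777, a pair of genes for zinc finger proteins. It was free-standing, and no embryonic list covered any of it. The P0 KO peaks covered 7.76 kb of it, and those of P0 het and both P3 lists all 8 kb. A length of 7 kb was shared by 11 runs, and the first 9 of these by chromosome and position were taken with it. Of these 10 runs, 4 were free-standing, 5 touched an embryonic call on one side and 1 was joined to an embryonic peak only through postnatal peaks. The largest embryonic cover among them was 72 bp, in E16.5 het, of a 7 kb run between Nr2f1 and Arrdc3 (chr13:79514001-79521000). A 7 kb run left out by this order, between Slc22a3 and Slc22a2 (chr17:12540001-12547000), was free-standing too. In the postnatal lists the 10 runs were covered for at least 6.45 kb each.

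A 7 kb free-standing run lay between Sox2 and Atp11b (chr3:35267001-35274000), 614.5 kb from Sox2, a gene for a pluripotency transcription factor. All 7 kb were covered in each postnatal list and none in the embryonic lists. Another lay between Abca1, a cholesterol transporter, and Slc44a1 (chr4:53173001-53180000), nearer to Abca1 than to Slc44a1. Both KO lists covered 7 kb of it, while P0 het covered 6.61 kb and P3 het 6.78 kb. One lay within Ankrd11, a gene for a chromatin regulator (chr8:122889001-122896000), with 6.45 kb covered at P0 in het and 6.85 kb in KO, and 7 and 6.86 kb at P3. The other long runs lay between Crot and Tmem243, Dera and Slc15a5, Mctp2 and Rgma, Pcsk1 and Ell2, and Gm52257 and Dppa4.

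The run beside Dppa4, a pluripotency-associated gene, lay on the same chromosome as Morc1 and 205.2 kb from it (chr16:48219001-48226000). Peaks covered 6.93 kb of it (het) and 6.83 kb (KO) at P0, 6.71 kb (het) and 6.78 kb (KO) at P3, and 0 kb in each embryonic list. The rule required postnatal cover in both genotypes, so these values are a description.

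To read the gain in lists that did not choose it, bins were chosen in the 4 lists of one genotype and read in the 4 of the other. In het, 42436 bins were called at P0 and P3 and in neither embryonic list. In KO, 21627 of these (50.96%, range over the 19 autosomes 48.3 to 60.3%) showed the same sequence of calls. Another 10605 (24.99%) were called in KO at neither postnatal stage and free of embryonic KO calls, 2665 (6.28%) were called at P0 only, 2563 (6.04%) at P3 only, and 4976 (11.7%) had an embryonic KO call. Among all bins free of embryonic KO calls, 2.71% were called at both P0 and P3 in KO, and among the het-chosen ones 57.7% were. Without the E16.5 het list in the choice, 116406 bins were chosen and the repeated share was 24.0%. The reading still required no E16.5 KO call, so chosen bins with such a call could not repeat. This value therefore does not measure how well the gain repeated. No other list left out moved it by as much.

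Chosen in KO, 56887 bins were read in het, where 38.0% (36.4 to 40.3% over the autosomes) repeated the pattern. The share was 46.8% among those free of embryonic het calls, against 2.03% of all bins free of such calls. Of the KO-chosen bins, 18.7% had an embryonic het call. A further 12.5% had no embryonic het call and were called in het at P0 only, 14.6% at P3 only and 16.1% at neither stage. Both repeated shares rest on the same 21627 bins, and the lower one belongs to the larger set of chosen bins.

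Members lay inside protein-coding genes more often than older H3K9me3 did. Of the 21627 members, 7030 (32.5%, range over the autosomes 25.8 to 39.9%) had their midpoint in a protein-coding gene body. The share was 19.6% for bins gained at E16.5 and kept, 16.4% for bins called in all 8 lists and 41.0% for all autosomal bins. It was higher in members than in either older group on 19 of 19 autosomes, and lower than in all bins on 19 of 19. The position of genes played no part in the choice of members. Neighbouring bins are not independent, so the autosomes are given in place of a test.

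The same held when the postnatal territory was split by place. Inside gene bodies 18.2% of the bins called in all 4 postnatal lists were new (95% Wilson interval 17.8 to 18.6%, n = 38637), and outside them 9.38% were (9.24 to 9.53%, n = 155589). The genic value was the higher on 19 of 19 autosomes. Free-standing runs had 40.8% of their bins in gene bodies, runs flanked on one side 27.0% and runs that filled a gap 19.2%. Within 1 kb of a gene end lay 2.39% of members, 2.42% of bins called in all 8 lists, 1.59% of bins gained at E16.5 and kept and 4.50% of all bins. Outside genes, members lay a median of 75.3 kb from the nearest protein-coding gene, against 166.1 kb for bins called in all 8 lists and 82.5 kb for all bins. In lncRNA gene bodies lay 9.69% of members, 6.17% of bins called in all 8 lists and 8.89% of all bins.

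**Figure D4:**
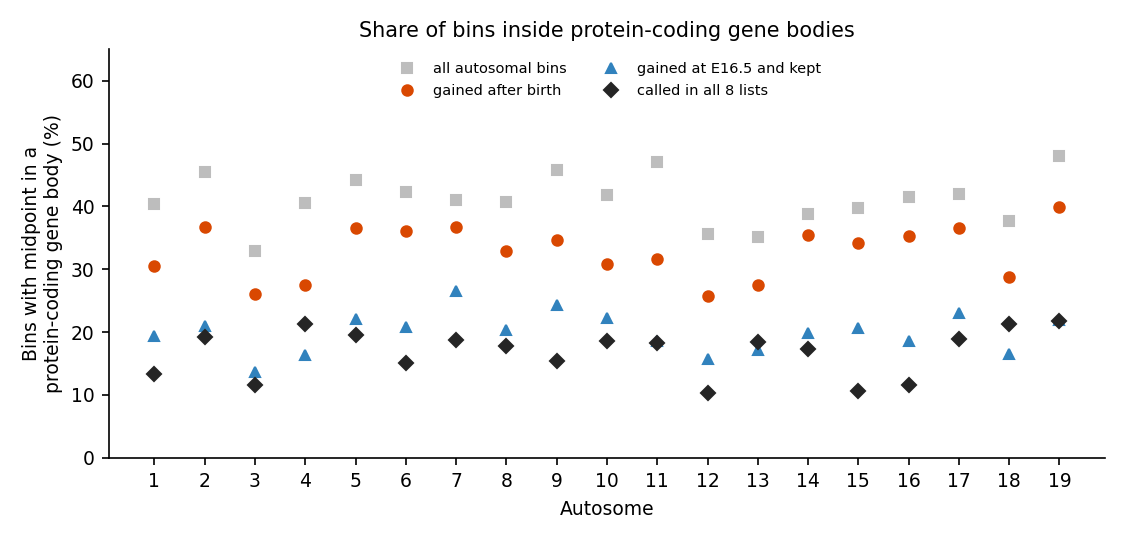
Percent of bins with the midpoint in a protein-coding gene body (y axis) on each autosome (x axis), for all bins, members and both older groups. On each autosome the members lie below all autosomal bins and above the bins gained at E16.5 and kept and those called in all 8 lists; over the autosomes they range from 25.8 to 39.9%.

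At least 1 member bin lay in the body of 2910 of 20665 protein-coding genes (14.1%). The median length of these genes was 97.8 kb, against 14.0 kb for genes without a member. Of 216 genes of 500 kb or more, 204 (94.4%) held a member, and of 7342 genes under 10 kb, 100 (1.36%) did. Per Mb of gene body the difference was smaller, with 8.16 member bins in the longest genes and 4.38 in the shortest. Gene bodies as a whole held 7.16 members per Mb and the rest of the autosomes 10.3.

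The 10 genes with most member bins were all longer than 500 kb. Fhit, at a common fragile site, held 30 members among 175 bins called in all 4 postnatal lists. The number of called bins in Fhit was 126 in E13.5 het, 138 in E13.5 KO, 184 in E16.5 het, 169 in E16.5 KO, 225 in P0 het, 256 in P0 KO, 220 in P3 het and 271 in P3 KO. Each postnatal list had more called bins in Fhit than any embryonic list. Macrod2 held 27 members, and the glypican genes Gpc6 and Gpc5 held 24 and 21. Nkain2 and Sntg1 held 21 each, the GABA receptor gene Gabrg3 and Lhfpl3 19 each, and A830018L16Rik 17. In Lhfpl3, 19 of 37 postnatal bins were new, and the embryonic lists had 15 to 31 called bins and the postnatal lists 48 to 72.

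Ranked by the share of the gene body in members, genes of at least 10 kb gave another set. Fcgr1 led with 4 of its 11 kb (36.4%), followed by Mymk, the muscle fusion factor myomaker, with 3 bins (30%). Neither had a bin called in all 8 lists. Mymk had 0 called bins in each embryonic list, 3 in both P0 lists and 5 in both P3 lists. Ugt2b34, a glucuronosyltransferase of the liver, had 5 members (29.4%), with 1, 0, 5 and 6 called bins in the embryonic lists and 12, 12, 12 and 13 after birth. The lectin receptor gene Clec4a1 (23.1%), the kallikrein gene Klk13 (20%) and Tbc1d21 (20%) followed. Prmt5, the arginine methyltransferase needed in germ cells, had 2 members (20%), with 0 called bins in each embryonic list, 3 in P0 het, 2 in P0 KO and 5 in both P3 lists. Zfp444, D6Ertd527e and Msmb completed the 10.

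Families of genes with a shared symbol start differed in how much of their postnatal H3K9me3 was new. Counted over gene bodies, 18.0% of the postnatal bins of all protein-coding genes were new. In the receptor families of the nose nearly all was old: 2.15% of 419 postnatal bins of Olfr genes (olfactory receptors) were new, 3.08% of 65 of Vmn1r genes and 0.992% of 605 of Vmn2r genes (vomeronasal receptors). These families carried much of the mark, with 19.7% of Olfr gene body bins called in all postnatal lists against 3.94% over all genes. Low new shares were also seen for Klr (lectin-like receptors, 3.51% of 114), Cyp (cytochromes P450, 3.67% of 491), Pcdh (protocadherins, 3.70% of 486) and Prl (the prolactin family, 4.17% of 96). Zfp genes, which encode zinc finger proteins, had 12.1% of 455.

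The families drawn with the highest new shares were Fox, Rbfox, Sox, Adam and Cacna. In Fox genes (forkhead factors) 35.7% of 56 postnatal bins were new, in Rbfox genes (splicing factors) 33.8% of 65 and in Sox genes 33.3% of 69. In names that start with Adam, which takes in the Adamts metalloproteases, 29.8% of 258 were new, and in Cacna genes (calcium channels) 27.8% of 158. Values of other channel and receptor families were lower than that of Cacna: Kcn genes (potassium channels) had 17.2% of 507, Gri genes (glutamate receptors) 14.5% of 282 and Gabr genes (GABA receptors) 13.2% of 219. Single long genes weighed in these sums. Sox5 held 13 of the 23 Sox members, Rbfox1 13 of 22 and Cacna1c 13 of 44. Foxo1 held 2 members and had 0 called bins in each embryonic list, 2 in P0 het, 3 in P0 KO, 6 in P3 het and 9 in P3 KO. No Hox, Taar, Mup, Tbx, Slitrk or Tas2r gene held a member, against 14.1% of all protein-coding genes. These families had few bins called in all postnatal lists that could be new. Hox, Taar and Slitrk genes had 0, Tas2r genes 4, Tbx genes 7 and Mup genes 14. Overlapping genes, such as those of the Ugt1a locus, count the same bin more than once.

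**Figure D5:**
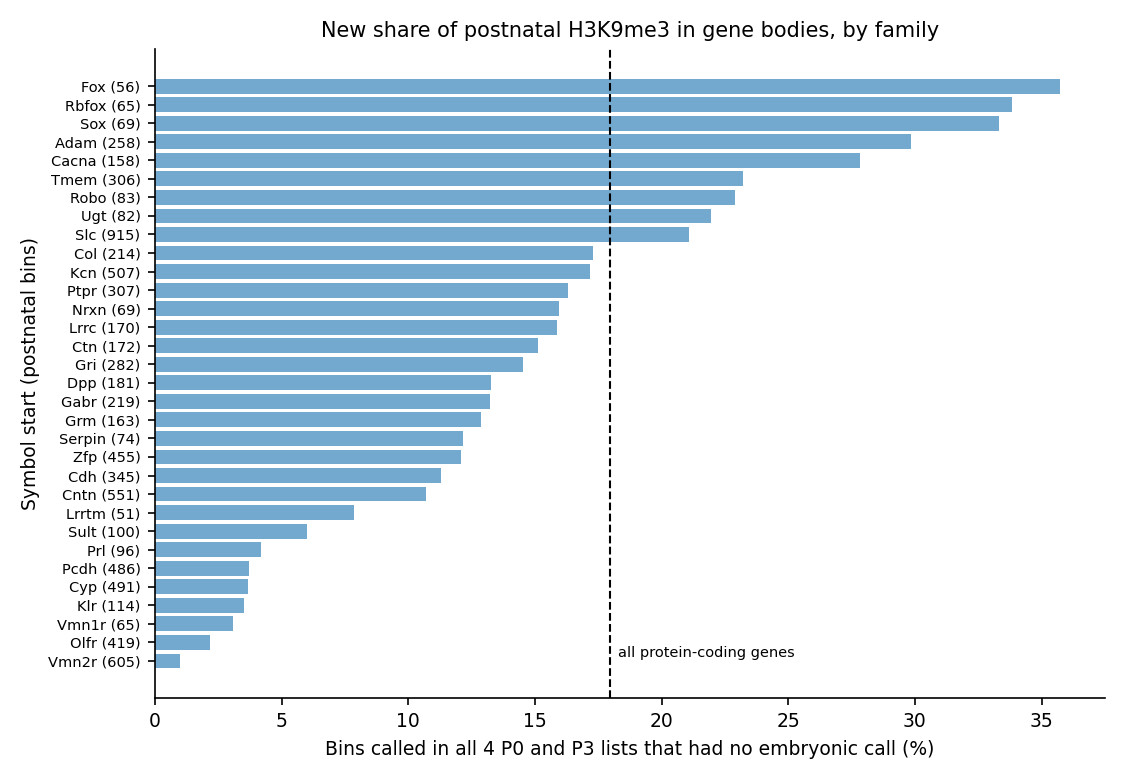
Percent of bins called in all 4 P0 and P3 lists that had no embryonic call (x axis), for gene families by the start of the symbol (y axis, with the number of such bins in brackets; families with at least 50 are drawn). The dashed line is the value over all protein-coding genes, 18.0%. Vmn2r (0.992%) and Olfr (2.15%) are at the low end and Fox (35.7%) is at the high end.

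Over all protein-coding genes 14.1% held a member, and the lists of chromatin and germ cell genes lay on both sides of this value. It is not matched for gene length, with which the share rose as given above. Of 25 genes that write, bind or remove H3K9me3 or act with it, 4 (16%) held a member. They were Kdm4a, an H3K9 demethylase, with 3, Setdb2 with 2, and the methyltransferase genes Setdb1 and Ehmt1 with 1 each. Kdm4a had 0 called bins in each embryonic list, 3 in P0 het, 5 in P0 KO and 7 in both P3 lists. Of 13 matched genes of DNA methylation and demethylation, 3 (23.1%) held a member, with 3 bins in Tet1 and 1 each in Tdg and Mbd2. Of 22 genes of the piRNA pathway, which guides silencing of transposons, 1 did (4.55%), with a single bin in Tdrd1. None of the 4 Morc family genes did.

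Of 29 meiosis genes, 5 (17.2%) held members: Rec114 and Hormad2 had 3 each, the synaptonemal complex gene Sycp1 had 2, and Sycp2 and Mei4 had 1 each. In Hormad2 the called bins numbered 0 in both E13.5 lists, 1 in both E16.5 lists, 4 in P0 het, 6 in P0 KO, 3 in P3 het and 4 in P3 KO. Of 22 spermatogonial genes 3 (13.6%) held members: Gfra1, the GDNF receptor of stem spermatogonia, and Foxo1 had 2 and Dmrtb1 had 1. Gfra1 was the 1 gene with members among 14 germ cell markers (7.14%). Among markers of other testis cells, 1 of 6 Sertoli genes (Wt1, 1 bin), 0 of 5 Leydig genes and 2 of 4 peritubular and endothelial genes (Pecam1 and Myh11, 2 bins each) held members. These lists are small and not matched for gene length, and none was tested.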

How the data were processed

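The authors deposited 1 peak list per genotype and stage for the 16 H3K9me3 samples, with chromosome, start and end in base pairs and no header. Per the submitters' processing notes the build is mm10, and bcl2fastq 2.20, cutadapt 1.18, Bowtie2 2.3.4.1, deepTools 3.5.0 and HOMER 4.10 were used. The roles of these tools, peak settings, control and pooling of replicates are not given in the sources used here. The other 16 samples, with an H3 antibody, entered no comparison.

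Covered base pairs were computed per 1 kb bin with Python 3.11.15 and numpy 2.4.6 from starts read as counted from 0; coordinates are printed 1-based. Bins were assigned to genes of the RefSeq table (GRCm38.p6, the same assembly as mm10) by their midpoint. The code was tested on simulated lists. Intervals are 95% Wilson intervals (scipy 1.17.1).

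Members and gene lists were chosen with earlier results of these data known. Named were the 10 longest runs, the 10 genes with most member bins, the 10 with the largest share of the body among genes of at least 10 kb, up to 10 protein-coding genes with a start in a member bin, ranked by run length, and listed genes with a member. A gene that this rule names is not reported here. Of 44 symbol starts, 43 matched autosomal genes. Alternatives varied the called share, bin size and origin, the embryonic limit, the peak sets, the joining of runs, the gene limits and the lists used.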

Additional observations from a re-analysis of the deposited data

Results flagged for a closer look

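Outside the autosomes, 319 bins of the X chromosome met the rule of the members, and any count above 3 was flagged. They made up 0.194% of its 164563 bins (95% Wilson interval 0.174 to 0.216%), against 0.902% on the autosomes. Of its bins called in all 4 postnatal lists they made up 4.93%, against 11.1% on the autosomes. Both shares were thus lower on the X. Calls in all 4 postnatal lists were also rarer there, with 6472 of its 164563 bins against 194226 of 2397450 on the autosomes. The cause was not tested.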

How the results depend on the processing

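No paired analysis was possible because each list stands for a genotype and stage and carries no replicate. The number of member bins stayed within 1.5 times of 21627 except where the bin size itself changed, with 42883 bins of 500 bp and 10750 bins of 2 kb; these span 21.4 and 21.5 Mb, against 21.6 Mb. Leaving out 1 list at a time gave 21804 to 29933 bins. The share of runs of at least 3 kb (7.18%) was 10.3% with 25% of the bin, 7.96% with 75%, 3.99% with 500 bp bins, 8.88% with 2 kb bins, 19.9% with equal peak numbers, 10.3% without peaks of the most common length and 9.07% with runs joined across 1 bin; leaving out lists gave 7.19 to 9.34%. The genic share (32.5%) was 33.8% with 25% of the bin, 31.0% with 75%, 34.3% with no embryonic base pair, 27.6% with equal peak numbers, 31.8% without peaks of the most common length and 36.8% with 5 kb around genes; leaving out lists gave 30.3 to 35.4%. The share of het-chosen gains repeated in KO (50.96%) was 52.2% with 25% of the bin, 48.9% with 75%, 48.5% with no embryonic base pair, 44.2% with equal peak numbers and 50.3% without peaks of the most common length; leaving out lists gave 24.0 to 57.9%. The share of runs that touch an embryonic call (51.6%) was 50.6% with 25% of the bin, 52.5% with 75%, 33.7% with no embryonic base pair, 57.6% with 500 bp bins, 42.4% with 2 kb bins and 69.1% with equal peak numbers; leaving out lists gave 50.7 to 55.0%. For the repeated share, leaving out a list changed the rule of its own genotype only, so choice and reading were unlike. The causes of all these shifts were not tested. Read depth is unknown, so a bin without a call may lie under the calling limit of that list.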

Other observations

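The members were spread over the autosomes. Their share of bins ranged from 0.777% on chromosome 12 to 1.06% on chromosome 18, and their share of the bins called in all 4 postnatal lists from 9.26% on chromosome 15 to 15.6% on chromosome 11. Of 2373 windows of 1 Mb, 112 (4.72%) held no member, the median was 8 and the highest count was 36. That window (chr14:16000001-17000000) held Rarb, a retinoic acid receptor gene, with Ngly1, Top2b and Oxsm. The next held 34 members and the single gene Klf12 (chr14:100000001-101000000). These windows were ranked after the members had been chosen.

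Along the chromosome arms, the 10% of each autosome nearest the centromeric end had the highest share of member bins (1.19%), and the share was 0.799% at its lowest, in the fifth of 10 equal parts. The new share of the postnatal territory followed another order: it was 8.88% in the second part and 15.4% in the last, at the distal end.

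Among all combinations of calls in the 8 lists, the pattern of the members was the fourth most common after the bins without any call, behind bins called in all 8 lists (98218), bins gained at E16.5 and kept (45060) and bins called in P3 KO alone (22116).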
